A study of Mus musculus with 9 samples.

Results

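The DNA repair and damage checkpoint genes described here are a list of 43 mouse genes set up by repair pathway, and 41 of them were measured among the 18193 genes of the arrays. A gene with several probe sets of its own symbol alone was read from the brightest, averaged across the 9 arrays. Xrcc2 and Rbbp8 are not analysed here. The cells were Neuro2a, a mouse neuroblastoma line, transfected for 48 h with small interfering RNAs called siMyT1, siLSD1 or siControl, with 3 arrays in each group. siMyT1 is directed at Myt1, a neural zinc finger transcription factor, and siLSD1 at Kdm1a, which encodes LSD1, a demethylase of histones; the study placed both proteins in 1 neural complex. All 3 groups are the same cell line. Nothing in the labels says that replicates were grown separately: the p-values therefore measure only the spread between these arrays, which may be technical.

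Cells repair DNA by several routes. Homologous recombination copies an intact sister chromatid with the help of Brca1, Brca2, Rad51c and Rad51d, the Fanconi anaemia proteins undo crosslinks between strands, and non-homologous end joining ligates broken ends held by the Ku dimer. The checkpoint kinases Atm, Atr, Chek1 and Chek2 signal damage, and fork protection proteins such as Clspn and Tipin keep stalled replication forks in place; dividing cells use recombination and fork protection mostly during S phase.

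The values are deposited intensities in arbitrary units, with array medians between 0.302 and 0.424, and a change is given as a difference of log2(intensity + 0.196), which understates the change of dim genes. The siRNA targets followed their labels: Myt1 averaged 0.660 ± 0.21 units with siMyT1, 6.95 ± 0.72 with siLSD1 and 4.90 ± 0.34 with siControl (SD, n = 3 each; limma, -2.60 for siMyT1 minus siControl, adjusted p = 1.25e-06). Kdm1a averaged 30.9 ± 1.6 units with siMyT1, 4.49 ± 0.40 with siLSD1 and 29.0 ± 1.0 with siControl (-2.64 for siLSD1 minus siControl, adjusted p = 3.01e-10). Actin 3′ over 5′ signal, a measure of RNA integrity, averaged 1.11 ± 0.0049 with siMyT1, 1.17 ± 0.054 with siLSD1 and 1.17 ± 0.017 with siControl. Correlations between arrays were 0.992 to 0.994 within groups and 0.986 to 0.992 between groups. Neuroblastoma markers summed to 222 to 239 units with siMyT1, 317 to 354 with siLSD1 and 285 to 308 with siControl, whereas 13 markers of fibroblasts, glia, blood, endothelium and epithelium summed to 4.82 to 5.82 units with siMyT1, 3.93 to 4.28 with siLSD1 and 3.40 to 5.10 with siControl. Of 14 measured neuroblastoma markers, 6 fell with siMyT1 against siControl (42.9%, where 2.29% of all genes did). With siLSD1 against siControl, 7 rose (50%, where 3.97% of all genes did) and 1 fell (7.14%, where 4.93% did). The smallest adjusted p were those of Chgb, Hand2, Chga and Gap43 with siMyT1 (-0.71, -0.46, -0.43 and -0.36) and of Ngfr, Mycn, Gata2 and Tubb3 with siLSD1 (0.997, 0.89, 0.62 and 0.42). Of the 13, Dcn, a fibroblast proteoglycan, rose with siMyT1 (0.61, limma, adjusted p = 0.0292). That is 7.69% of these markers, where 5.12% of all genes rose. The part of these differences in the results below was not tested. In bulk RNA, fewer cells in a phase or state and less RNA per cell cannot be told apart.

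When Kdm1a was knocked down, 4 of 10 measured genes of homologous recombination, 3 of 7 of the Fanconi anaemia pathway, 2 of 7 that process break ends and junctions, 2 of 3 of fork protection and both mismatch repair genes fell. No damage checkpoint, end joining or base excision member passed the test in that comparison, as counted in each group below. With siLSD1, 13 of 41 members fell against siControl (31.7%, where 4.93% of all genes fell) and 0 rose, where 3.97% of all genes did (limma, Benjamini-Hochberg adjusted p under 0.05 over all genes). The members and the gene lists below were chosen with earlier results of these data known, so such shares describe the lists and do not test them. At an unadjusted p under 0.05, 19 members were lower and 1, Xrcc5, was higher. The median siLSD1 minus siControl difference was -0.19 over the members and -0.03 over all genes. Of the 41 differences 34 were negative and 7 positive, where 42.6% of all genes had a positive difference. For 21 members every siLSD1 array lay below every siControl array, which was so for 16.1% of all genes. Under quantile normalization 14 members fell with siLSD1, and under median centring of each array 10 did. All genes split into 722 higher and 897 lower as deposited, 1425 and 1378 under quantile normalization and 1103 and 564 after centring.

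With siMyT1, 3 members rose against siControl, namely Chek2, Rad50 and Xrcc5, which is 7.32% of the members and close to the 5.12% of all genes. None fell (0 of 41, limma; 2.29% of all genes fell), and at an unadjusted p under 0.05 the members numbered 7 higher and 0 lower. The median difference was 0.10, against 0.05 over all genes. In 9 of the 41 members every siMyT1 array exceeded every siControl array, which was so for 16.5% of all genes. All genes split into 931 higher and 417 lower as deposited, 1368 and 1092 under quantile normalization and 662 and 501 after centring.

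The 2 knockdowns were also set against each other. Of the 41 members, 23 were higher with siMyT1 than with siLSD1 (56.1%, where 13.2% of all genes were) and 0 lower, where 5.58% of all genes were (limma). At an unadjusted p under 0.05 27 were higher and 1, Nbn, was lower. The median siMyT1 minus siLSD1 difference was 0.40 over the members and 0.09 over all genes, and in 28 members no siLSD1 array reached any siMyT1 array, against 23.3% of all genes. Centring each array on its median instead moved the all-gene median of this comparison to -0.04, a shift of over 0.1, and the member median to 0.27; 15 members were then higher and 1, Nbn, lower. The all-gene split of this comparison was 2408 higher and 1015 lower as deposited, 2410 and 1921 under quantile normalization, and 1248 and 1695 after centring, which turned it round.

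**Figure D1:**
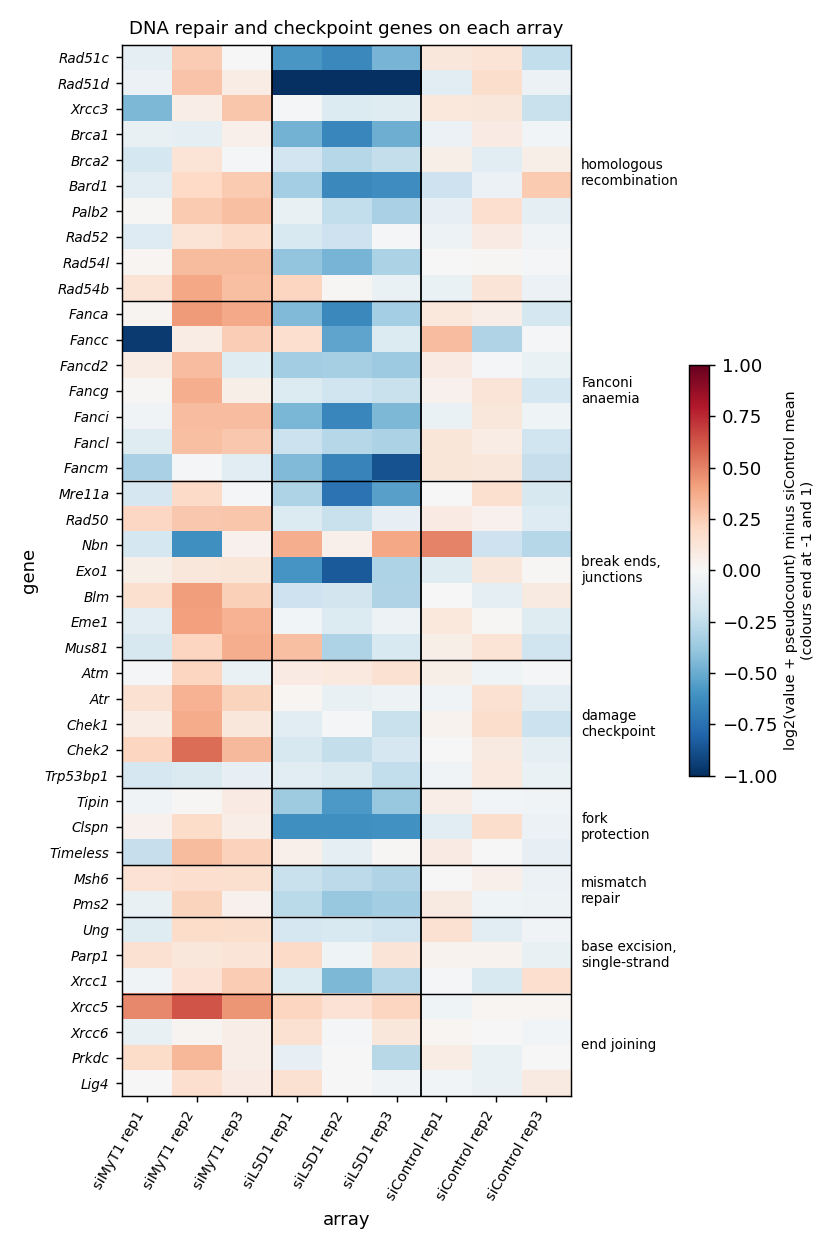
Each row is 1 of the 41 measured genes, ordered by pathway, and each column 1 array (siMyT1, siLSD1, siControl). The colour is log2(intensity + 0.196) minus that gene's siControl mean. The siLSD1 columns are lower for most genes. Measured instead from each gene's mean over the 9 arrays, the median deviations over the members were -0.14, -0.24 and -0.22 for siLSD1. Those for siMyT1 were 0.03, 0.28 and 0.21.

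**Figure D2:**
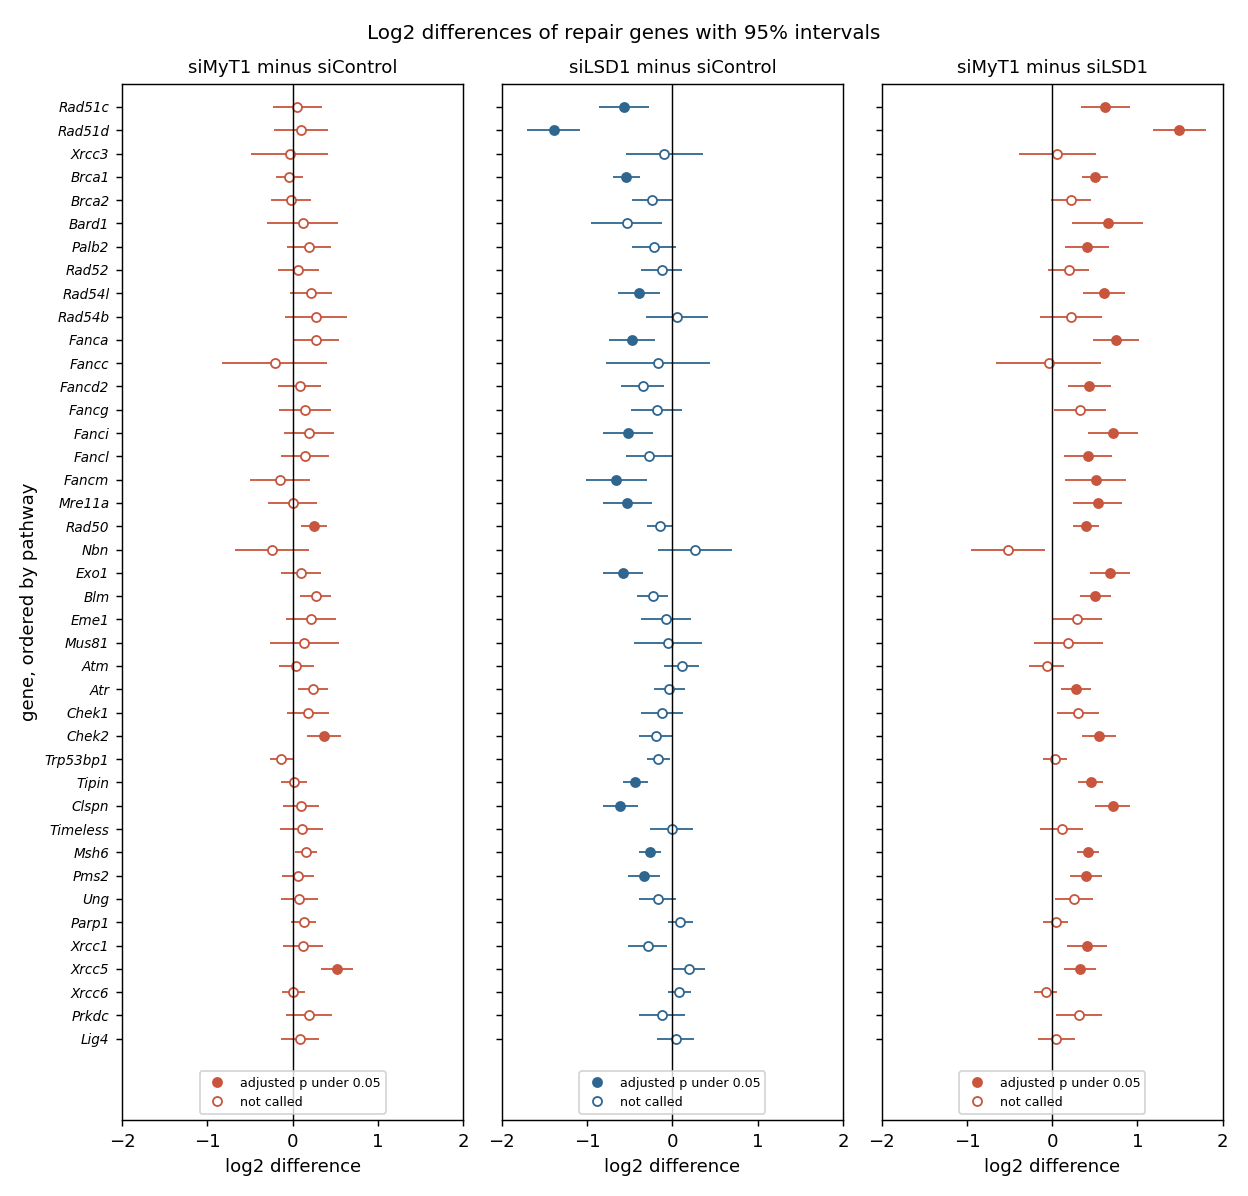
Points are log2 differences and bars 95% intervals for each gene in 3 comparisons, with filled points at an adjusted p under 0.05. Filled points lie left of 0 for 13 genes in siLSD1 minus siControl and right of 0 for 23 genes in siMyT1 minus siLSD1.

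Promoters are shown for members called against siControl with siMyT1 or siLSD1 that carry letters resembling binding sites of E2F. Brca1 is shown as a called member that lacks them. E2F is a family of transcription factors known for S-phase genes. Windows run from 250 bases before to 50 after the RefSeq start (GRCm38.p6), 5′ to 3′ on the gene's strand, and capitals mark a match to TTTCCCGC, TTTGGCGC, TTTCGCGC or TTTGCCGC on either strand. Rad51c (chr11:87404457-87404756, minus strand), Clspn (chr4:126556730-126557029, plus strand) and Msh6 (chr17:87974800-87975099, plus strand) fell with siLSD1, as did Brca1 (chr11:101551906-101552205, minus strand), which has no match in its window. Chek2 (chr5:110839733-110840032, plus strand) rose with siMyT1, and its siLSD1 arrays lay below siControl without a call.
Rad51c: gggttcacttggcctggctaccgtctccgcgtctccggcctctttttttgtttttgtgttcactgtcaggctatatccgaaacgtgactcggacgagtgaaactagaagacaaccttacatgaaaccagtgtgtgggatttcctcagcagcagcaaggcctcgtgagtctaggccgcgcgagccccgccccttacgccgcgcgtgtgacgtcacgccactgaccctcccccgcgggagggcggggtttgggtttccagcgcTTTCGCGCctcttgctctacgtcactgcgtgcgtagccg
Clspn: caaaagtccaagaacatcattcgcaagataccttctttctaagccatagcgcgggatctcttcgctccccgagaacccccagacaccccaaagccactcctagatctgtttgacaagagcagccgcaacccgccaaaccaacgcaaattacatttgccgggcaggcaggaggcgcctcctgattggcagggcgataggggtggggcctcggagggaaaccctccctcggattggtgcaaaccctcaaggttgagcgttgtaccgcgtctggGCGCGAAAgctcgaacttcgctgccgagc
Msh6: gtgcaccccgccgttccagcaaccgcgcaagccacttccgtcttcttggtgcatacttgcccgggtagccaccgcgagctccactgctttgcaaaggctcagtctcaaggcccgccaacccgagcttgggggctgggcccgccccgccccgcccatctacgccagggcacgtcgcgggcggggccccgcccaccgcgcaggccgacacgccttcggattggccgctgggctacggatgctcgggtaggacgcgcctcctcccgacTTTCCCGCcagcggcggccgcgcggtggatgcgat
Chek2: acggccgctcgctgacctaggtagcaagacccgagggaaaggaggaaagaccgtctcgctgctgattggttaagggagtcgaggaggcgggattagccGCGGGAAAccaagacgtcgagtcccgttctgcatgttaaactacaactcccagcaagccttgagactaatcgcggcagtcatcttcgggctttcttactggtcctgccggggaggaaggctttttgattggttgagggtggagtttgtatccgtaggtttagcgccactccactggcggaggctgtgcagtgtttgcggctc
Brca1: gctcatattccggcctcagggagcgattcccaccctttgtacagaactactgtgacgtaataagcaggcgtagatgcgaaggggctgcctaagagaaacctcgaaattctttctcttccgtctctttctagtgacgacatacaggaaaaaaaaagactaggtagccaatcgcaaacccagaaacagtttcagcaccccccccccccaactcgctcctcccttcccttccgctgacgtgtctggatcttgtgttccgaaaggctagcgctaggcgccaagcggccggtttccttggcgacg
Of the 43 listed genes, 33 had a window and 8 of these held a match (24.2%), as did 704 of all 27025 genes with a window (2.6%). The matches were in 3 of 10 members that fell with siLSD1 and in 5 of 23 that were not called, Bard1, Brca2, Chek2, Fancg and Xrcc6. Besides Brca1, the members that fell without a match were Rad54l, Fanca, Fanci, Fancm, Mre11a and Pms2, which are not shown. Bard1 was called only between the knockdowns and is not shown either. A second RefSeq start of Rad51c (chr11:87404905-87405204, minus strand) also holds a match, TTTCCCGC on the opposite strand, which reads GCGGGAAA on the gene's strand. Among replication genes, 11 of 27 held a match (40.7%), and among mitosis genes 1 of 19 did (5.26%). A match is a run of letters and does not show a bound site.

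In homologous recombination, the pathway with the most measured members, Rad51c, Rad51d, Brca1 and Rad54l of 10 fell with siLSD1 against siControl (40%). The share was larger in the Fanconi anaemia pathway (42.9%), fork protection and mismatch repair. Of the 10, 6 were higher with siMyT1 than with siLSD1. None of the 10 was called with siMyT1 against siControl (limma; 0 also at an unadjusted p under 0.05). Rad51d, a protein that assists recombination on single-stranded DNA, measured 1.90, 2.47 and 2.10 units on the siMyT1 arrays, 0.644, 0.703 and 0.574 on the siLSD1 arrays and 1.82, 2.27 and 1.91 on the siControl arrays. All siLSD1 arrays lay far below all others, and the mean siLSD1 level was 32% of siControl. The difference was -1.39 ± 0.14 (SE; limma, adjusted p = 4.96e-05) against siControl, and 1.49 ± 0.14 (adjusted p = 1.77e-05) for siMyT1 minus siLSD1. This size belongs to the brightest of 4 Rad51d probe sets: the siLSD1 minus siControl difference was -0.39, -0.30 and -0.49 on the other 3, none called over all probe sets, and -0.64 with the 4 averaged, still called.

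Rad51c, which works with Rad51d and with Xrcc3, measured 2.45, 3.16 and 2.62 units on the siMyT1 arrays, 1.68, 1.60 and 1.84 on the siLSD1 arrays and 2.85, 2.89 and 2.17 on the siControl arrays. The siLSD1 arrays were again below both other groups, which overlapped each other. It differed by -0.57 ± 0.13 (adjusted p = 0.0173) for siLSD1 minus siControl and by 0.62 ± 0.13 (adjusted p = 0.00535) for siMyT1 minus siLSD1. Its second probe set gave -0.38 for siLSD1 minus siControl, not called, and the average of both -0.47, still called. Xrcc3 was dim, close to the level below which 40% of genes lie (0.366 units), and ranged over 0.229 to 0.506 units with siMyT1, 0.330 to 0.374 with siLSD1 and 0.302 to 0.432 with siControl. Its groups overlapped and its siLSD1 minus siControl difference was -0.09 (95% interval -0.54 to 0.36).

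Brca1, the tumour suppressor that directs breaks to recombination, measured 11.6, 11.5 and 12.7 units on the siMyT1 arrays, 8.73, 7.68 and 8.66 on the siLSD1 arrays and 11.7, 13 and 12 on the siControl arrays. Every siLSD1 array was below every other array, at 68.4% of siControl on average, whereas siMyT1 and siControl overlapped. The differences were -0.54 ± 0.07 (adjusted p = 0.000343) for siLSD1 minus siControl, 0.50 ± 0.07 (adjusted p = 0.00033) for siMyT1 minus siLSD1 and -0.04 ± 0.07 (adjusted p = 0.834) for siMyT1 minus siControl. Of its 3 dimmer probe sets, 2 fell as well, by 0.62 and by 0.54. Bard1, the partner that forms a ubiquitin ligase with Brca1, was dim and measured 0.612, 0.807 and 0.849 units on the siMyT1 arrays, 0.493, 0.363 and 0.370 on the siLSD1 arrays and 0.560, 0.641 and 0.852 on the siControl arrays. Its siLSD1 arrays lay below the rest, but the siLSD1 minus siControl difference of -0.54 ± 0.19 (adjusted p = 0.115) missed the threshold, and siMyT1 minus siLSD1 reached 0.65 ± 0.19 (adjusted p = 0.0308).

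Palb2, which links Brca1 to Brca2, measured 2.75, 3.31 and 3.40 units on the siMyT1 arrays, 2.57, 2.26 and 2.13 on the siLSD1 arrays and 2.57, 3.09 and 2.55 on the siControl arrays. The siMyT1 arrays exceeded the siLSD1 arrays (0.41 ± 0.12, adjusted p = 0.0271), and the siLSD1 and siControl arrays overlapped. Brca2 itself, a tumour suppressor needed for recombination, ranged over 2.38 to 2.99 units with siMyT1, 2.19 to 2.35 with siLSD1 and 2.48 to 2.82 with siControl. Its siLSD1 arrays lay below the others without a call, at -0.24 (95% interval -0.47 to -0.0046) for siLSD1 minus siControl. Rad54l, a motor protein that aids strand invasion, measured 2.38, 2.97 and 2.97 units on the siMyT1 arrays, 1.74, 1.65 and 1.85 on the siLSD1 arrays and 2.36, 2.37 and 2.32 on the siControl arrays. The 3 groups did not overlap in the order siLSD1, siControl, siMyT1, with -0.39 ± 0.11 (adjusted p = 0.046) for siLSD1 minus siControl and 0.61 ± 0.11 (adjusted p = 0.00202) for siMyT1 minus siLSD1. The 3 dimmer Rad54l probe sets gave siLSD1 minus siControl differences of -0.04, -0.03 and 0.01, and the average of all 4 gave -0.11, not called. Rad52, an annealing protein, ranged over 2.41 to 3.05 units with siMyT1, 2.28 to 2.61 with siLSD1 and 2.55 to 2.82 with siControl, and Rad54b, a relative of Rad54l, over 0.675 to 0.836 units with siMyT1, 0.559 to 0.721 with siLSD1 and 0.558 to 0.668 with siControl. Neither was called in any comparison, with siLSD1 minus siControl differences of -0.13 (95% interval -0.37 to 0.11) and 0.05 (95% interval -0.31 to 0.42).

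In the Fanconi anaemia pathway 3 of 7 members fell with siLSD1, Fanca, Fanci and Fancm, and 5 of 7 were higher with siMyT1 than with siLSD1. None of the 7 was called with siMyT1 against siControl (limma; 1, Fanca, at an unadjusted p under 0.05). Fanca, a subunit of the core ubiquitin ligase complex, measured 3.55, 4.72 and 4.58 units on the siMyT1 arrays, 2.5, 2.16 and 2.71 on the siLSD1 arrays and 3.76, 3.64 and 3.06 on the siControl arrays. The siLSD1 arrays lay below both other groups, with -0.47 ± 0.13 (adjusted p = 0.0319) for siLSD1 minus siControl and 0.75 ± 0.13 (adjusted p = 0.00101) for siMyT1 minus siLSD1. Its dimmer probe set gave -0.15 for siLSD1 minus siControl, not called, and the average of both -0.31 (adjusted p = 0.214). Fanci, which the core complex ubiquitinates together with Fancd2, measured 1.78, 2.32 and 2.31 units on the siMyT1 arrays, 1.28, 1.09 and 1.29 on the siLSD1 arrays and 1.73, 2.0 and 1.77 on the siControl arrays. Here too the siLSD1 arrays were lowest, with -0.52 ± 0.14 (adjusted p = 0.0304) for siLSD1 minus siControl and 0.71 ± 0.14 (adjusted p = 0.00252) for siMyT1 minus siLSD1. Averaged with its dimmer probe set, which gave -0.35 alone, the siLSD1 minus siControl difference was -0.44 and not called (adjusted p = 0.0636). Fancm, the translocase that anchors the core complex to DNA, measured 1.20, 1.53 and 1.42 units on the siMyT1 arrays, 1.09, 0.902 and 0.759 on the siLSD1 arrays and 1.70, 1.69 and 1.29 on the siControl arrays. Its siLSD1 arrays were below all others, at -0.66 ± 0.16 (adjusted p = 0.024) for siLSD1 minus siControl, and siMyT1 minus siLSD1 was 0.51 ± 0.16 (adjusted p = 0.0464). Its dimmer probe sets gave -0.31 and -0.60 for siLSD1 minus siControl, and the average of the 3 gave -0.52, not called (adjusted p = 0.0619).

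Fancd2, the central ubiquitinated protein of the pathway, measured 2.80, 3.33 and 2.42 units on the siMyT1 arrays, 2.04, 2.07 and 2.02 on the siLSD1 arrays and 2.82, 2.62 and 2.53 on the siControl arrays. No siLSD1 array reached another group, yet the siLSD1 minus siControl difference was -0.35 ± 0.12 (adjusted p = 0.0874), above the threshold, and only siMyT1 minus siLSD1 was called (0.44 ± 0.12, adjusted p = 0.0191). Fancl, the catalytic subunit of the core complex, measured 2.49, 3.41 and 3.33 units on the siMyT1 arrays, 2.33, 2.21 and 2.16 on the siLSD1 arrays and 2.99, 2.88 and 2.36 on the siControl arrays. It followed the same order, at -0.27 ± 0.13 (adjusted p = 0.258) for siLSD1 minus siControl and 0.42 ± 0.13 (adjusted p = 0.0386) for siMyT1 minus siLSD1. The core subunits Fancc and Fancg were not called: Fancc ranged over 0.682 to 1.83 units with siMyT1, 0.984 to 1.71 with siLSD1 and 1.19 to 1.91 with siControl, and Fancg over 1.55 to 2.03 units with siMyT1, 1.29 to 1.38 with siLSD1 and 1.34 to 1.70 with siControl. Fancc arrays of 1 group differed more than the groups did, with a siLSD1 minus siControl difference of -0.17 (95% interval -0.78 to 0.45).

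Among the 7 proteins that process break ends and junctions, Mre11a and Exo1 fell with siLSD1, Rad50 rose with siMyT1, and Mre11a, Rad50, Exo1 and Blm were higher with siMyT1 than with siLSD1. The 3 subunits of the Mre11 complex, which senses and trims broken ends, gave different calls, and the differences between them were not tested. Mre11a, its nuclease, measured 2.93, 3.82 and 3.29 units on the siMyT1 arrays, 2.64, 1.92 and 2.22 on the siLSD1 arrays and 3.33, 3.73 and 2.96 on the siControl arrays. The siLSD1 arrays lay below the others, with -0.53 ± 0.13 (adjusted p = 0.0244) for siLSD1 minus siControl and 0.53 ± 0.13 (adjusted p = 0.0132) for siMyT1 minus siLSD1. The average of its probe sets gave -0.35 for siLSD1 minus siControl and its unique probe set -0.17, neither called. Rad50, its ATPase, measured 10.6, 11.1 and 11.1 units on the siMyT1 arrays, 8.33, 7.81 and 8.65 on the siLSD1 arrays and 9.71, 9.43 and 8.38 on the siControl arrays. The siMyT1 arrays exceeded all others, at 0.25 ± 0.07 (adjusted p = 0.0478) against siControl and 0.40 ± 0.07 (adjusted p = 0.00154) against siLSD1, and the siLSD1 and siControl arrays overlapped. Nbn, the subunit that recruits Atm, measured 2.90, 2.10 and 3.40 units on the siMyT1 arrays, 4.29, 3.42 and 4.38 on the siLSD1 arrays and 4.72, 2.83 and 2.68 on the siControl arrays. Its siControl arrays overlapped those of both knockdowns, and siMyT1 minus siLSD1 was negative, -0.51 ± 0.20 (adjusted p = 0.0979).

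Exo1, the exonuclease that lengthens resected ends and also serves mismatch repair, measured 9.54, 9.94 and 9.98 units on the siMyT1 arrays, 6.02, 5.04 and 7.34 on the siLSD1 arrays and 8.39, 9.92 and 9.21 on the siControl arrays. The siLSD1 arrays were below all others, at 66.9% of siControl on average, with -0.58 ± 0.11 (adjusted p = 0.00447) for siLSD1 minus siControl and 0.68 ± 0.11 (adjusted p = 0.000812) for siMyT1 minus siLSD1. Its second probe set fell by 0.56 with siLSD1 against siControl and was also called. Blm, a helicase that dissolves crossed strands, measured 6.16, 7.40 and 6.51 units on the siMyT1 arrays, 4.73, 4.80 and 4.43 on the siLSD1 arrays and 5.52, 5.11 and 5.87 on the siControl arrays. The 3 groups were apart, siMyT1 above siControl above siLSD1, and only siMyT1 minus siLSD1 was called (0.50 ± 0.08, adjusted p = 0.00104), with 0.27 ± 0.08 (adjusted p = 0.0728) for siMyT1 minus siControl and -0.23 ± 0.08 (adjusted p = 0.119) for siLSD1 minus siControl. Eme1 and Mus81, which form a nuclease that cuts junctions, were not called. Eme1 ranged over 2.14 to 3.15 units with siMyT1, 2.09 to 2.27 with siLSD1 and 2.12 to 2.52 with siControl, and Mus81 over 1.28 to 1.93 units with siMyT1, 1.14 to 1.84 with siLSD1 and 1.25 to 1.63 with siControl.

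In the damage checkpoint group 0 of 5 members were called with siLSD1 against siControl (limma; 1, Trp53bp1, at an unadjusted p under 0.05), and 1 of 5, Chek2, rose with siMyT1. Chek2, a kinase activated by Atm, measured 5.61, 7.19 and 6.06 units on the siMyT1 arrays, 4.28, 4.06 and 4.27 on the siLSD1 arrays and 4.84, 5.12 and 4.50 on the siControl arrays. The 3 groups did not overlap, with siMyT1 highest and siLSD1 lowest. The siMyT1 minus siControl difference was 0.36 ± 0.09 (adjusted p = 0.0306), siMyT1 minus siLSD1 was 0.55 ± 0.09 (adjusted p = 0.00104) and siLSD1 minus siControl was -0.19 ± 0.09 (adjusted p = 0.274). Atr, the kinase that answers stalled forks, measured 6.4, 7.37 and 6.75 units on the siMyT1 arrays, 5.83, 5.44 and 5.53 on the siLSD1 arrays and 5.6, 6.4 and 5.31 on the siControl arrays. Its siMyT1 arrays lay above the siLSD1 arrays (0.28 ± 0.08, adjusted p = 0.0331), while siMyT1 minus siControl was 0.24 ± 0.08 (adjusted p = 0.107). The dimmer Atr probe sets gave siMyT1 minus siLSD1 differences of 0.13 and -0.28, not called. The average of all 3 gave 0.04, also not called (adjusted p = 0.913).

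Chek1, the kinase downstream of Atr, ranged over 4.14 to 5.12 units with siMyT1, 3.34 to 3.87 with siLSD1 and 3.35 to 4.47 with siControl on its brightest probe set and was not called, at -0.12 (95% interval -0.37 to 0.13) for siLSD1 minus siControl. On the second of its 5 probe sets the same difference was -0.41 (adjusted p = 0.0294 over all probe sets) and siMyT1 minus siLSD1 was 0.57 (adjusted p = 0.00258), so the reading of Chek1 depends on the probe set. Atm, the kinase that answers double-strand breaks, ranged over 2.90 to 3.58 units with siMyT1, 3.23 to 3.40 with siLSD1 and 2.95 to 3.18 with siControl, a siLSD1 minus siControl difference of 0.11 (95% interval -0.10 to 0.32). Trp53bp1, which shields ends from resection, ranged over 17.2 to 18.3 units with siMyT1, 16.3 to 17.9 with siLSD1 and 18.5 to 20.8 with siControl. Both knockdowns lay below siControl without a call, at -0.13 (95% interval -0.27 to 0.0034) for siMyT1 and -0.17 (95% interval -0.30 to -0.03) for siLSD1.

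Of the 3 fork protection members, Clspn and Tipin fell with siLSD1 and Timeless was not called; none of the 3 was called with siMyT1 against siControl (limma; 0 at an unadjusted p under 0.05). Clspn, the adaptor through which Atr activates Chek1, measured 3.84, 4.24 and 3.91 units on the siMyT1 arrays, 2.35, 2.36 and 2.37 on the siLSD1 arrays and 3.42, 4.22 and 3.55 on the siControl arrays. The siLSD1 arrays were nearly identical and below all others, at 63.3% of siControl, with -0.61 ± 0.10 (adjusted p = 0.00117) for siLSD1 minus siControl and 0.71 ± 0.10 (adjusted p = 0.000223) for siMyT1 minus siLSD1. Tipin, which binds Timeless at the fork, measured 17.4, 17.9 and 18.8 units on the siMyT1 arrays, 13.9, 11.9 and 13.7 on the siLSD1 arrays and 18.7, 17.4 and 17.4 on the siControl arrays. Its siLSD1 arrays lay below the rest, which overlapped, at -0.43 ± 0.07 (adjusted p = 0.00129) for siLSD1 minus siControl, and siMyT1 minus siLSD1 was 0.45 ± 0.07 (adjusted p = 0.000542). Timeless ranged over 5.96 to 8.80 units with siMyT1, 6.60 to 7.29 with siLSD1 and 6.63 to 7.47 with siControl. Its siLSD1 minus siControl difference was -0.01 (95% interval -0.26 to 0.24) on its brighter probe set. The dimmer one gave -0.30 ± 0.11 (adjusted p = 0.134 over all probe sets), so the size of the Timeless difference depends on the probe set, and its difference from Tipin was not tested.

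Both mismatch repair members fell with siLSD1 and were higher with siMyT1 than with siLSD1. Neither kept its siLSD1 minus siControl call under median centring of each array or in a fit without the intensity trend. Msh6, which recognises base mismatches in newly copied DNA, measured 10.1, 10.3 and 10.2 units on the siMyT1 arrays, 7.79, 7.59 and 7.38 on the siLSD1 arrays and 9.14, 9.47 and 8.77 on the siControl arrays. The 3 groups were apart, siMyT1 above siControl above siLSD1, with -0.26 ± 0.06 (adjusted p = 0.0143) for siLSD1 minus siControl, 0.42 ± 0.06 (adjusted p = 0.000317) for siMyT1 minus siLSD1 and 0.16 ± 0.06 (adjusted p = 0.137) for siMyT1 minus siControl. Pms2, an endonuclease of mismatch repair, measured 5.07, 6.28 and 5.53 units on the siMyT1 arrays, 4.40, 4.07 and 4.17 on the siLSD1 arrays and 5.72, 5.19 and 5.16 on the siControl arrays. The siLSD1 arrays lay below the others, with -0.33 ± 0.09 (adjusted p = 0.0307) for siLSD1 minus siControl and 0.40 ± 0.09 (adjusted p = 0.0062) for siMyT1 minus siLSD1. A dimmer Pms2 probe set gave the opposite sign for siLSD1 minus siControl, 0.28, not called, and the average of its 3 probe sets gave -0.14, also not called.

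**Figure D3:**
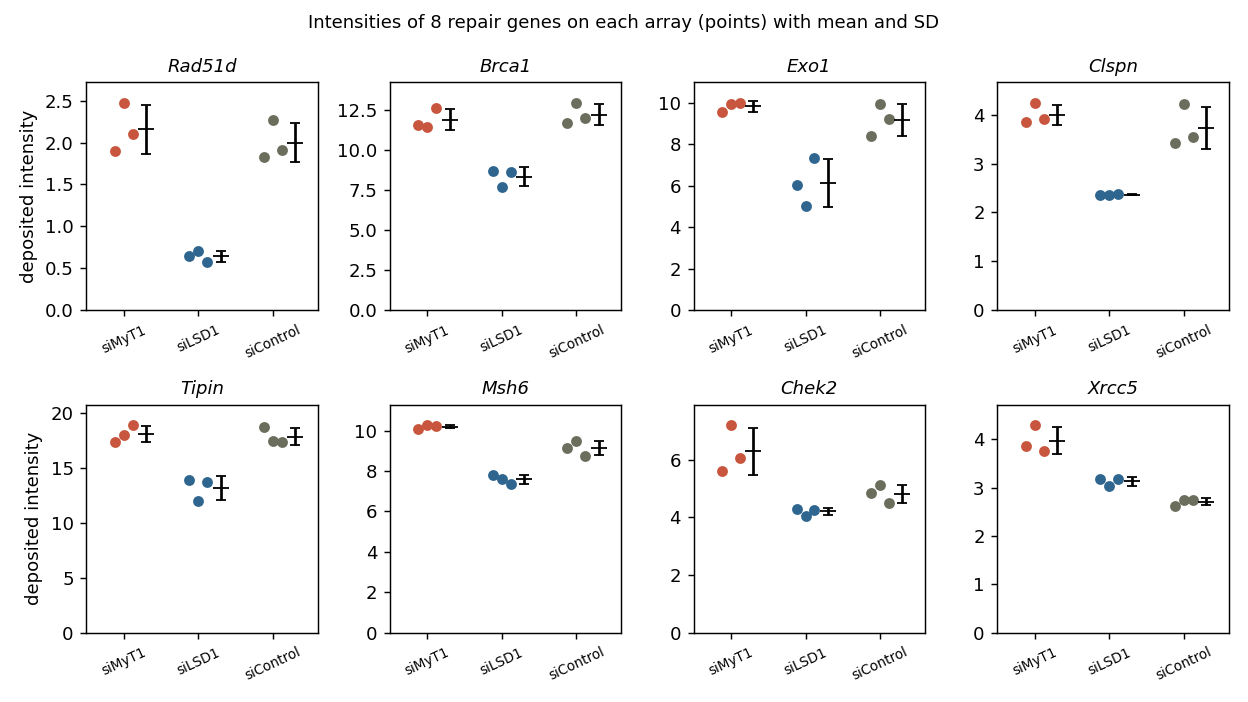
Points are deposited intensities of 8 genes on each array, with the mean and SD of each group beside them; the groups are siMyT1, siLSD1 and siControl. The siLSD1 points lie below every other point for Rad51d, Brca1, Exo1, Clspn, Tipin, Msh6 and Chek2, and the siMyT1 points lie above every other point for Msh6, Chek2 and Xrcc5.

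**Figure D4:**
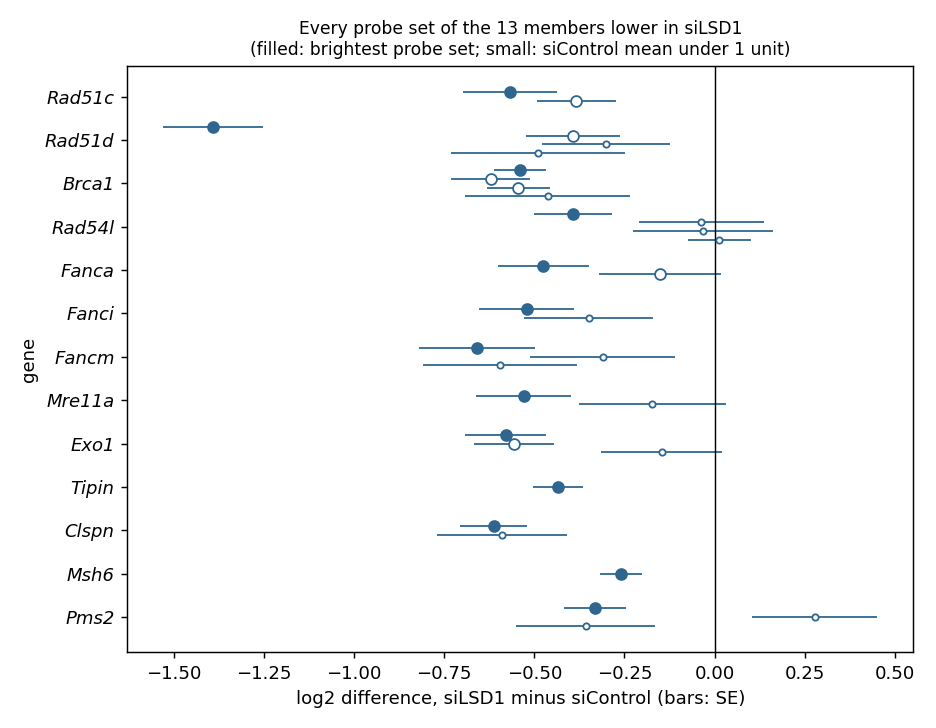
Each point is the siLSD1 minus siControl log2 difference on 1 probe set, for the 13 genes that fell, with bars of 1 SE, filled for the brightest probe set of a gene and small where the siControl mean was under 1 unit. For Rad51d the brightest probe set is at -1.39 and the others between -0.49 and -0.30, and for Brca1 and Exo1 a second probe set was also called.

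End joining and base excision members showed few calls. Xrcc5, the larger subunit of the end-binding Ku dimer, measured 3.87, 4.29 and 3.75 units on the siMyT1 arrays, 3.18, 3.03 and 3.18 on the siLSD1 arrays and 2.63, 2.75 and 2.75 on the siControl arrays. Every siMyT1 array exceeded every other array and the siLSD1 arrays exceeded the siControl arrays for Xrcc5. Of the 41 members, 34 had a negative siLSD1 minus siControl difference, 13 of them called. The siMyT1 minus siControl difference was 0.52 ± 0.09 (adjusted p = 0.00326), the siMyT1 level being 146% of siControl, siLSD1 minus siControl was 0.19 ± 0.09 (adjusted p = 0.216), and siMyT1 minus siLSD1 was 0.32 ± 0.09 (adjusted p = 0.0189). Its partner Xrcc6 ranged over 30.1 to 33.2 units with siMyT1, 31.3 to 35.2 with siLSD1 and 31.2 to 32.1 with siControl, with a siMyT1 minus siControl difference of 0.01 (95% interval -0.13 to 0.14). Prkdc, the kinase that Ku recruits, ranged over 1.86 to 2.26 units with siMyT1, 1.42 to 1.75 with siLSD1 and 1.67 to 1.87 with siControl. Lig4, the ligase of this route, ranged over 2.5 to 2.83 units with siMyT1, 2.43 to 2.79 with siLSD1 and 2.37 to 2.65 with siControl. Of the 4 end joining members, 0 fell or rose with siLSD1 (limma; 1, Xrcc5, higher at an unadjusted p under 0.05).

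Xrcc1, the scaffold of single-strand break repair, measured 5.58, 6.35 and 6.88 units on the siMyT1 arrays, 5.19, 4.14 and 4.68 on the siLSD1 arrays and 5.68, 5.13 and 6.47 on the siControl arrays. Its siMyT1 arrays lay above its siLSD1 arrays (0.41 ± 0.11, adjusted p = 0.0171), and the siLSD1 and siControl arrays overlapped. Ung, which removes uracil from DNA, ranged over 3.54 to 4.41 units with siMyT1, 3.34 to 3.46 with siLSD1 and 3.55 to 4.31 with siControl. Parp1, the sensor of nicked DNA, ranged over 30.7 to 31.7 units with siMyT1, 27.5 to 32.4 with siLSD1 and 27.0 to 29.2 with siControl. Neither was called, with siLSD1 minus siControl differences of -0.17 (95% interval -0.40 to 0.05) and 0.09 (95% interval -0.05 to 0.24), and 0 of the 3 base excision members fell with siLSD1 (limma; 1, Xrcc1, at an unadjusted p under 0.05).

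The number of calls rested partly on single arrays. Without 1 array, the members that fell with siLSD1 numbered 5, 6 and 10 without siControl replicate 1, 2 and 3, and 8, 6 and 7 without siLSD1 replicate 1, 2 and 3. Brca1, Clspn, Exo1, Rad51d and Tipin were called in all 16 alternative settings, with adjusted p of at most 0.0345. Rad51c lost its call without siLSD1 replicate 1 or 2 or siControl replicate 1 or 2 (adjusted p then 0.0542 to 0.0859), and Msh6 without siLSD1 replicate 3 or siControl replicate 1 (0.0647 to 0.0813). Fanca lost it without replicate 1 or 2 of either group (0.0693 to 0.131), and Fancm and Mre11a without siLSD1 replicate 2 or 3 or siControl replicate 1 or 2 (0.0631 to 0.115 and 0.0793 to 0.0955). Fanci, Pms2 and Rad54l lost it when any of the 6 arrays was left out (0.0605 to 0.107, 0.0511 to 0.142 and 0.0911 to 0.135). With the probe sets of each gene averaged, 7 members fell with siLSD1, and Fanca, Fanci, Fancm, Mre11a, Pms2 and Rad54l lost their calls. Median centring of each array removed the calls of Msh6, Pms2 and Rad54l. A fit without the intensity trend removed those of Fanca, Mre11a, Msh6 and Pms2, and the replicate block those of Fanca, Fanci, Pms2 and Rad54l.

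With siMyT1 against siControl, Xrcc5 was called under all 16 alternatives (adjusted p of at most 0.0206). Chek2 lost its call without siMyT1 replicate 2 or 3 or siControl replicate 1 or 3 (adjusted p then 0.0752 to 0.116), and Rad50 when any of the 6 arrays was left out (0.0556 to 0.183). Over all 16 alternatives, Chek2 kept its call in 10 and Rad50 in 4 (adjusted p of at most 0.116 and 0.276). The members higher with siMyT1 than with siLSD1 numbered 26, 14 and 17 without siMyT1 replicate 1, 2 and 3, and 22, 15 and 15 without siLSD1 replicate 1, 2 and 3. Blm, Brca1, Chek2, Clspn, Exo1, Fanca, Fanci, Msh6, Rad51c, Rad51d and Tipin, 11 genes, were called in every alternative that could be fitted to them. Pms2, Rad50 and Rad54l kept the call without each of the 6 arrays and lost it only when probe sets were averaged. Atr, Bard1, Fancm, Palb2 and Xrcc1 lost it without siMyT1 replicate 2 or 3 or siLSD1 replicate 2 or 3 (0.0503 to 0.181 over these genes), and Fancl without any of these or siLSD1 replicate 1 (0.0660 to 0.147). Fancd2, Mre11a and Xrcc5 lost it without siMyT1 replicate 2 and without siLSD1 replicate 3 for Fancd2, 2 for Mre11a, and 2 or 3 for Xrcc5 (0.0564 to 0.0778). These losses are those from left-out arrays. Median centring also removed the calls of Atr, Bard1, Fancd2, Fancl, Fancm, Palb2, Xrcc1 and Xrcc5. With probe sets averaged, 16 members were higher, and Atr, Fancd2, Fancl and Mre11a lost the call as well. Other settings each removed fewer calls. The siMyT1 arrays were not alike for the members: replicate 1 had a median deviation of 0.03 from the gene means, against 0.28 and 0.21 on replicates 2 and 3.

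The wider set of repair genes, 86 measured of 92 listed, also held more lower than higher calls with siLSD1. Of the 86, 12 fell (14.0%, where 4.93% of all genes did) and 2 rose (2.33%, against 3.97%) with siLSD1, with a median of -0.13 (limma). With siMyT1 5 rose (5.81%) and 1 fell (1.16%), where 5.12% and 2.29% of all genes did, with a median of 0.12. Between the knockdowns 32 were higher with siMyT1 than with siLSD1 (37.2%, against 13.2%) and 0 lower (5.58% of all genes were), with a median of 0.27 (limma; at an unadjusted p under 0.05, 47 higher and 3 lower). All 3 subunits of replication protein A, which coats single-stranded DNA, fell with siLSD1. Rpa1 measured 30.0, 32.8 and 34.7 units on the siMyT1 arrays, 20.1, 16.8 and 19.2 on the siLSD1 arrays and 26.5, 26.3 and 25.8 on the siControl arrays, so that the groups were apart, with -0.49 ± 0.07 (adjusted p = 0.00095) for siLSD1 minus siControl and 0.30 ± 0.07 (adjusted p = 0.0254) for siMyT1 minus siControl. Rpa2 and Rpa3 differed by -0.33 ± 0.08 (adjusted p = 0.0173) and -0.46 ± 0.07 (adjusted p = 0.000786) with siLSD1. Rad51ap1, a protein of the recombination route, fell by 0.61 ± 0.06 (adjusted p = 6.12e-05). In the damage signalling list 4 of 22 fell. The smallest adjusted p there belonged to Trip13, an ATPase known for its part in the spindle checkpoint and in meiotic recombination, and to Cdc25a, a phosphatase that activates cyclin-dependent kinases, which fell by 0.67 ± 0.07 (adjusted p = 4.38e-05) and 0.70 ± 0.10 (adjusted p = 0.000521). Etaa1, an activator of Atr, and Hus1, of the checkpoint clamp, fell by 0.44 ± 0.09 (adjusted p = 0.00977) and 0.59 ± 0.14 (adjusted p = 0.015). Gtf2h4, a subunit of the excision repair factor TFIIH, and Parp2, a relative of Parp1, fell by 0.39 ± 0.08 (adjusted p = 0.0056) and 0.36 ± 0.10 (adjusted p = 0.0443).

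Other wider members ran differently. Rev3l, the catalytic subunit of a translesion polymerase, measured 13.5, 11.9 and 13.2 units on the siMyT1 arrays, 14.2, 14.0 and 14.3 on the siLSD1 arrays and 11.9, 11.2 and 11.3 on the siControl arrays, and rose with siLSD1 by 0.30 ± 0.06 (adjusted p = 0.00719). Rad9b, a relative of a checkpoint clamp subunit, was the other gene that rose with siLSD1, by 0.68 ± 0.19 (adjusted p = 0.0449), and was named after its value was seen. Rad9b was dim, averaging 0.252 units with siLSD1 and 0.0838 with siControl, both below the level under which 40% of genes lie (0.366 units). Polk, a further translesion polymerase, measured 8.10, 8.01 and 8.39 units on the siMyT1 arrays, 6.37, 5.94 and 5.51 on the siLSD1 arrays and 5.48, 6.32 and 6.04 on the siControl arrays. It rose with siMyT1 by 0.45 ± 0.08 (adjusted p = 0.0036) and its siLSD1 and siControl arrays overlapped. The damage sensor Xpc, the glycosylase Nthl1 and the recombination gene Rad51b also rose with siMyT1, by 0.51 ± 0.11 (adjusted p = 0.0156), 0.65 ± 0.14 (adjusted p = 0.0117) and 0.87 ± 0.18 (adjusted p = 0.0097). Rad21, a cohesin subunit, fell with siMyT1 by 0.34 ± 0.07 (adjusted p = 0.0168). Between the knockdowns, the smallest adjusted p of the wider lists belonged to Cetn2, Parp2, Polk, Rpa1 and Trip13, at siMyT1 minus siLSD1 differences of 0.67, 0.53, 0.45, 0.79 and 0.77.

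Cell cycle genes moved beside the repair genes, and their part in the result was not tested. With siLSD1, 16 of 35 replication genes (45.7%), 15 of 23 mitosis genes (65.2%) and 9 of 14 genes of E2F and B-Myb factors (64.3%) fell, where 4.93% of all genes did, and 0 rose (limma; 0 rose at an unadjusted p under 0.05), with medians of -0.27, -0.33 and -0.38. The replication genes with the smallest adjusted p were Cdc45 and Mcm4 of the replicative helicase, the ribonucleotide reductase subunit Rrm2 and the origin protein Orc6, at -0.89, -0.60, -0.63 and -0.51. Those of mitosis were the spindle checkpoint gene Mad2l1, the proliferation marker Mki67 and the kinesins Kif11 and Kif23, at -0.77, -0.42, -0.61 and -0.57. The factors E2f2, Mybl2, E2f7 and E2f6 differed by -1.82 ± 0.11 (adjusted p = 1.1e-06), -1.35 ± 0.13 (adjusted p = 2.41e-05), -1.01 ± 0.10 (adjusted p = 2.6e-05) and -0.89 ± 0.09 (adjusted p = 4.96e-05). Replication genes summed to 568 to 634 units with siMyT1, 450 to 502 with siLSD1 and 551 to 580 with siControl. In siMyT1 against siControl, 5 of 35 replication genes rose (14.3%, where 5.12% of all genes did), with Rfc5, Gins2, Cdc6 and Mcm6 at 0.46, 0.47, 0.39 and 0.25 among them, and 0 fell (limma; 0 at an unadjusted p under 0.05). None of 23 mitosis genes rose (0; limma; 4 at an unadjusted p under 0.05), and 2 fell (8.7%, where 2.29% of all genes did), Kif11 and Nuf2, at -0.50 and -0.41. Of the 14 E2F and B-Myb genes, 1 rose (7.14%), Rbl2 at 0.46, and 3 fell (21.4%), E2f2, E2f8 and E2f7, at -0.49, -0.59 and -0.42. Between the knockdowns, Cdc6, Mad2l1 and E2f2 had the smallest adjusted p of their lists, at siMyT1 minus siLSD1 differences of 1.04, 1.03 and 1.32. Of 15 p53 target genes, which respond to damage signals, 2 rose (13.3%) and 3 fell (20%) with siLSD1, where 3.97% and 4.93% of all genes did. Among them were Phlda3, Zmat3, Ei24 and Sesn1 at 0.68, -0.66, -0.45 and -0.48. With siMyT1 1 of the 15 rose, Gadd45a (1.06 ± 0.07, limma, adjusted p = 8.24e-06). That is 6.67% of the list and close to the 5.12% of all genes.

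**Figure D5:**
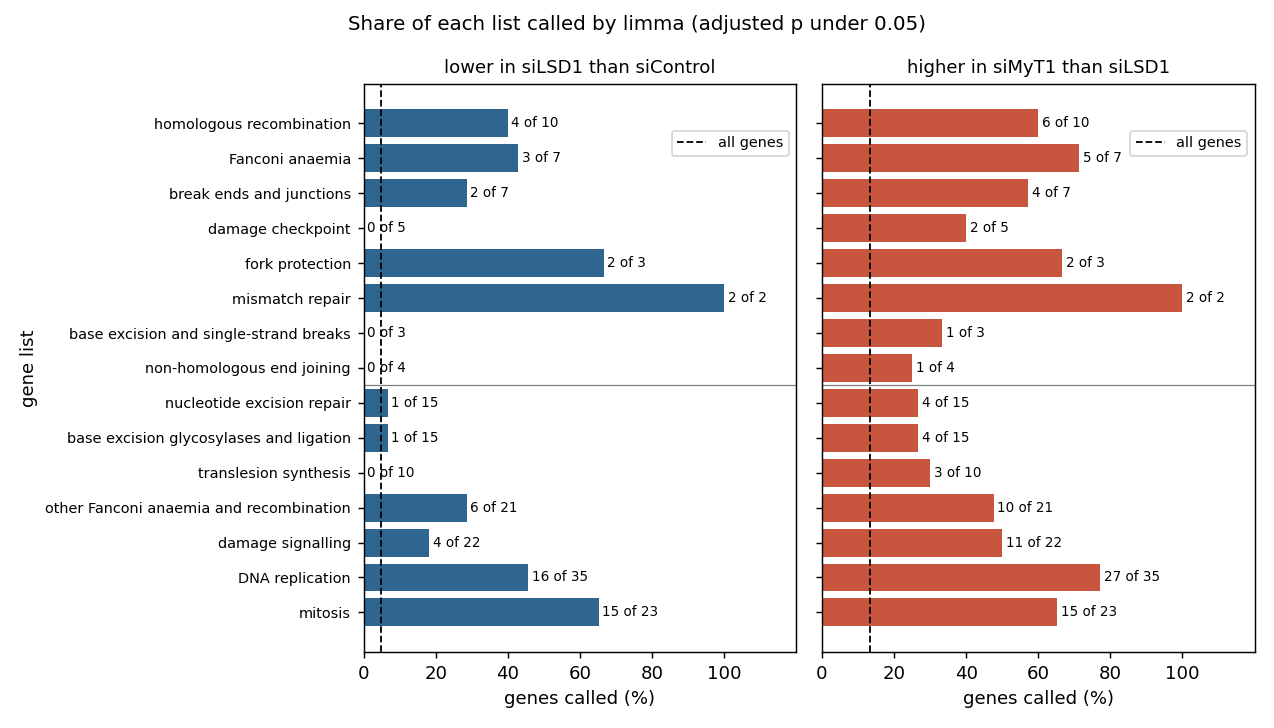
Bars give the percentage of measured genes of each list called lower with siLSD1 than with siControl (left) or higher with siMyT1 than with siLSD1 (right), with the members' pathways above the grey line, wider lists below it and a dashed line at the share of all genes. On the left, 4 of 10 recombination genes and 3 of 7 Fanconi anaemia genes were called, against 4.93% of all genes.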

How the data were processed

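Total RNA of 9 Neuro2a samples was hybridised to Affymetrix mouse arrays, 1 array a sample, per the labels. The deposited values are probe set intensities on a linear scale in arbitrary units; how the authors summarised and scaled them is not given in the sources used here, and the labels name no build. Of 45101 probe sets, 34945 carried 1 gene symbol in the platform annotation, 932 several and 9211 were unlisted; the brightest probe set stood for each of 18193 genes. The members and the gene lists were chosen with earlier results of these data known.

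Intensities were multiplied by 164, which brings the trimmed mean to 500, and tested as log2(value + 32), a pseudocount of 0.196 deposited units, without further normalization. Group means were fitted over all 9 arrays with limma 3.58.1 in R 4.3.3 (lmFit, contrasts, eBayes with an intensity trend; 6 residual and 6.84 prior degrees of freedom), two-sided, with Benjamini-Hochberg adjustment over all genes and a threshold of 0.05. An exact permutation test of 3 against 3 arrays cannot go below 0.1 and was not used. The 3 arrays a group limit the precision. Same-numbered arrays did not deviate together (correlations of -0.03 to 0.04), so the numbers were not taken to pair them. On simulated arrays the fit for siLSD1 against siControl recovered 91% of 200 genes changed 1.5-fold and 99.5% of 200 changed 2-fold. At 1.5-fold it recovered 84.5% for siMyT1 against siControl and 88.5% for siMyT1 against siLSD1. The changed genes were drawn only from genes brighter than the median gene, with normal noise. The recovery of dim genes was therefore not measured, and a member without a call is not shown to be unchanged.

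Every member is named, with array values for those called in any comparison, plus the siRNA targets and, from each wider list, the called genes with the smallest adjusted p, up to 4 against siControl and, in the repair and cell cycle lists, the first for siMyT1 against siLSD1. Rad9b was added. Alternatives were the scaling, the pseudocount, a filter on dim genes, the choice of probe sets, the samples in the fit, the trend, a replicate block and each array left out. RefSeq windows of GRCm38.p6 gave the promoters; Rad51d, Exo1, Rad50, Nbn, Tipin, Fancd2, Prkdc, Rad54b, Xrcc2 and Rbbp8 had none.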

Additional observations from a re-analysis of the deposited data

How the results depend on the processing

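With 3 arrays a group and a residual spread from 6 degrees of freedom, calls near the threshold depended on the settings, and no called member difference changed sign in any alternative. Median centring turned the all-gene median to 0.05 for siLSD1 minus siControl and to -0.04 for siMyT1 minus siLSD1 (-0.03 and 0.09 as deposited), and with them which direction held more called genes. The member medians kept their sign in all 16 alternatives, at 0.06 to 0.18 for siMyT1 minus siControl, -0.24 to -0.10 for siLSD1 minus siControl and 0.27 to 0.42 for siMyT1 minus siLSD1. Quantile normalization gave 1368 higher and 1092 lower genes for siMyT1 minus siControl (931 and 417 as deposited), 1425 and 1378 for siLSD1 minus siControl (722 and 897), and 2410 and 1921 for siMyT1 minus siLSD1 (2408 and 1015). Quantile normalization called 1 member, Trp53bp1, lower with siMyT1 than with siControl, and called Trp53bp1 lower with siLSD1 than with siControl too. It called 1 member, Xrcc5, higher with siLSD1 than with siControl, and gave a member median of 0.30 for siMyT1 minus siLSD1. Median centring gave 662 higher and 501 lower genes for siMyT1 minus siControl, 1103 and 564 for siLSD1 minus siControl, and 1248 and 1695 for siMyT1 minus siLSD1, where 15 members were higher and 1, Nbn, lower, with a median of 0.27. Averaging all probe sets gave 618 higher and 244 lower genes for siMyT1 minus siControl, 455 higher genes and 7 lower members for siLSD1 minus siControl, and a median of 0.30 for siMyT1 minus siLSD1. Without the intensity trend 563 genes were higher and 202 lower, and 1 member higher, for siMyT1 minus siControl; fitting only the compared groups left 1 member higher there too. Leaving out the dimmest 40% of genes, which removed no member, fitting only the compared groups and the replicate block each called 1 member, Nbn, lower for siMyT1 minus siLSD1. With the replicate block 9 members fell with siLSD1 against siControl, 2 rose with siMyT1 against siControl and 22 were higher with siMyT1 than with siLSD1; the pairing was not borne out. Without 1 array at a time, genes numbered 423 to 1174 higher and 214 to 313 lower for siMyT1 minus siControl, 432 to 731 higher and 523 to 802 lower for siLSD1 minus siControl, and 1525 to 2897 higher and 705 to 969 lower for siMyT1 minus siLSD1. Members then numbered 1 to 3 higher, 5 to 10 lower and 14 to 26 higher in those comparisons, with medians of 0.06 to 0.18, -0.24 to -0.18 and 0.32 to 0.42. Why single calls were lost was not tested.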
